A study of Mus musculus with 6 samples.

Results

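The genes of glycolysis and gluconeogenesis were described in RENCA cells, an established mouse renal adenocarcinoma line, with and without overexpression of AQP1, a water channel of the plasma membrane. The members were all genes that the pathway annotation in the deposited table places on the KEGG map of glycolysis and gluconeogenesis, and they numbered 64 of 78298 genes. The rule reads the annotation and no expression value. RNA was sequenced from 3 samples of cells transduced with a lentivirus carrying AQP1 (oe-AQP1) and 3 samples transduced with the empty vector (oe-NC). The transgene was driven by a ubiquitin C promoter. Both groups were the same parental line without an engineered deletion, both were kept in puromycin (2 μg/mL) for 14 days beginning 48 hours after transduction, and neither received another drug. The samples were described as biological replicates and labelled with the same batch, but the sources used here do not say whether the 3 samples of a group came from separate transductions, so the p-values measure the spread between these samples. Expression was read as CPM, a gene's counts relative to the total of its library, after scaling between samples by the TMM method, and of the 64 members 45 passed the filter on low counts.

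Glycolysis splits glucose into pyruvate through a chain of cytosolic enzymes, with hexokinase, phosphofructokinase and pyruvate kinase as the steps that are hardest to reverse. Lactate dehydrogenase turns pyruvate into lactate and restores NAD+, and pyruvate dehydrogenase sends it to the mitochondrion instead. Gluconeogenesis runs most of the chain backwards and bypasses the irreversible steps with its own enzymes. Among the tissues that make glucose this way is the proximal tubule of the kidney, whereas renal carcinomas are known for strong glycolysis, in which the hypoxia-inducible transcription factors, activators of many of these genes, are often active.

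The libraries held between 18385714.02 and 21920898.67 expected counts each. A count of 0 therefore allows up to 0.163 CPM in the shallowest library and 0.137 CPM in the deepest, for counting error only. Aqp1 stood at 390, 389 and 381 CPM in oe-AQP1 samples 1 to 3 and at 2.09, 1.37 and 2.11 CPM in oe-NC samples 1 to 3, so every library fitted its label. The epithelial markers Krt8 and Krt18 were present while Epcam had 0 counts in all samples, and the renal markers Pax2, Pax8 and Cdh16 were detected. The 5 epithelial markers summed to between 467 and 479 CPM in oe-AQP1 and between 583 and 640 CPM in oe-NC, and the 3 renal markers to between 318 and 336 CPM and between 370.3 and 416 CPM. Krt8, Krt18, Cdh1 and Krt19 were called lower (log2 fold changes of -0.41, -0.27, -0.86 and -0.97), with Cdh1 and Krt19 at no more than 3.92 and 1.32 CPM. Cdh16 was called lower (-0.63), and Pax2 and Pax8 were not called (0.25 and -0.07). Of 7 leukocyte markers, Adgre1 had 0 counts and Ptprc, Itgam and Cd3e had at most 3 counts in any library, and the 7 summed to between 47.7 and 51.1 CPM in oe-AQP1 and between 55.7 and 58.8 CPM in oe-NC. Within it Csf1r and Lyz2 were lower (log2 fold changes of -1.51 and -0.52, FDR = 1.31e-05 and 2.73e-04), and Cd68, the most abundant, was not called (0.15, FDR = 0.0764). The 3 endothelial markers summed to at most 1.6 CPM. The 4 fibroblast markers summed to between 56.0 and 58.0 CPM in oe-AQP1 and between 51.0 and 65.0 CPM in oe-NC. Of these 4, Col1a1 was called lower and Pdgfrb higher (log2 fold changes of -0.73 and 0.34, FDR = 0.00238 and 0.00284). Dcn and Pdgfra had at most 1 count in any library. The part of these marker shifts in the results was not tested.

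Most of the pathway was lower in oe-AQP1 cells, by modest amounts. Of the 45 members tested, 29 fell and 2 rose at a false discovery rate (FDR) under 0.05 in limma-voom, and 14 were not called. Among all 15522 genes tested, 16.6% were called lower and 16.0% higher in the same fit. The median log2 fold change (oe-AQP1 against oe-NC) of the 45 members was -0.24, against 0.00 over all genes, and 41 of the 45 had a negative value. With the study's additional threshold of an absolute log2 fold change above 1, no member was lower and 1, Aldh1b1, was higher, where 0.844% and 4.39% of all genes met the threshold in those directions. A decrease of at least 0.4 on the log2 scale was called for 16 members and for 5.28% of all genes. In 33 members every oe-AQP1 sample lay below every oe-NC sample and in 3 every one lay above, and over all genes these shares were 23.8% and 23.5%.

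**Figure D1:**
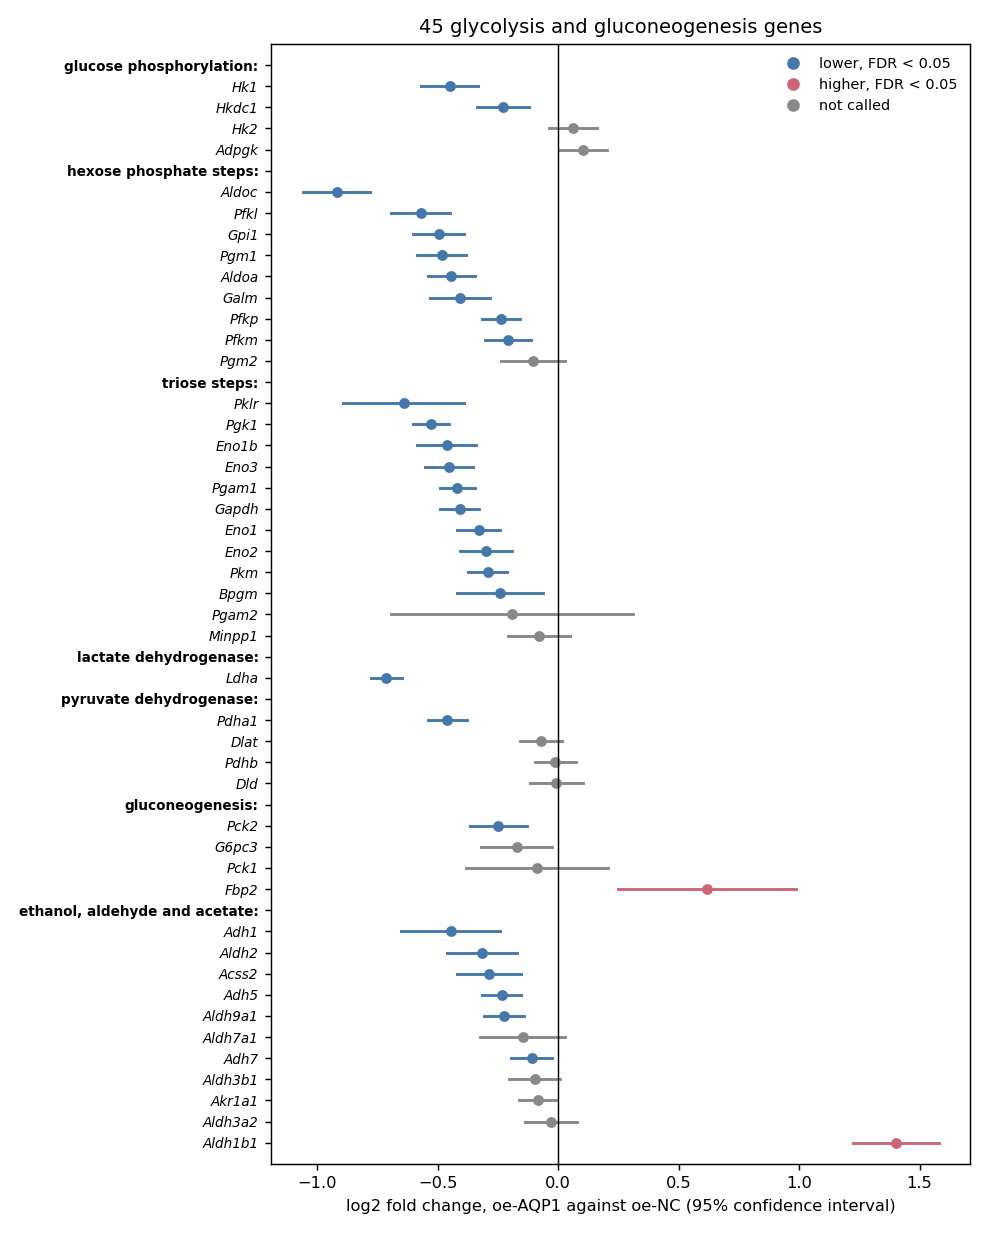
Fitted log2 fold change of the 45 members tested, oe-AQP1 against oe-NC, grouped by reaction step on the vertical axis, with the 95% confidence interval as a line, in blue where lower and in red where higher at FDR under 0.05. The 29 decreases fill most of the hexose phosphate, triose and lactate dehydrogenase steps, and the 2 increases are Fbp2 and Aldh1b1.

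Together the 64 members carried 0.847%, 0.849% and 0.837% of all counts in oe-AQP1 samples 1 to 3 and 1.08%, 1.06% and 1.06% in oe-NC samples 1 to 3. The groups did not overlap, and their means of 0.845% ± 0.006 and 1.07% ± 0.013 (SD, n = 3 each) differed by -0.222 percentage points. The exact two-sided permutation test gave p = 0.1, the smallest value that 3 samples against 3 allow. Transcripts encoded in mitochondrial DNA also took a smaller share of the counts in oe-AQP1, at 1.71%, 1.71% and 1.76%, than in oe-NC, at 2.37%, 2.97% and 2.99%, and with the counts of nuclear protein-coding genes alone as the total the members' shares were 0.909% ± 0.007 and 1.16% ± 0.007.

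When levels were divided by transcript length, 19 of the 23 members at or above the median control level fell and none of them rose, with a median log2 fold change of -0.41. Of the 2333 genes of the whole table at or above the same level, 35.1% were called lower and 12.6% higher. Of the 22 members below that level 10 fell and 2 rose, with a median of -0.18, and of all genes below it 13.3% were lower and 16.5% higher. Whether the members' decreases depended on level was not tested. In the oe-NC cells the highest levels were those of Pkm at 766 ± 34.8 CPM per kilobase, Gapdh at 670 ± 23.1 and Ldha at 603 ± 6.57 (SD, n = 3). Pgk1 came next at 411 ± 11.3 CPM per kilobase. These top 4 members did not overlap between neighbours in the 3 oe-NC samples. Pgam1, Eno1b and Aldoa followed at 345 ± 1.88, 335 ± 28.6 and 334 ± 20.0 CPM per kilobase and did not differ beyond their spread. Eno1 and its near copy Eno1b were ranked apart, and how reads were divided between them is uncertain. Eno1 stood at 168 ± 7.85 CPM per kilobase in oe-NC. Before division by length, the summed level of Eno1 and Eno1b in oe-NC was 986 ± 34.6 CPM, against 751 CPM for Pgk1. The place of enolase 1 in the order per kilobase is not settled.

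The entry of glucose into the chain was mixed. The hexokinases phosphorylate glucose and trap it in the cell, and of 4 kept genes of this step 2 fell (16.6% of all genes). Hk1, the broadly expressed hexokinase of the mitochondrial surface, stood at 184, 177 and 175 CPM in oe-AQP1 and at 265, 237 and 231 CPM in oe-NC. The groups were separate, with a log2 fold change of -0.45 ± 0.05 (SE, FDR = 1.26e-04, limma-voom). Hkdc1, a hexokinase-like enzyme of low activity, fell by 0.23 on the log2 scale (FDR = 0.00499). Hk2, the inducible hexokinase of many tumours, was at 116, 109 and 115 CPM in oe-AQP1 and at 113, 104 and 109 CPM in oe-NC. These groups overlapped, and the log2 fold change of 0.06 ± 0.04 did not pass the test (FDR = 0.335). Adpgk, which uses ADP in place of ATP, had a log2 fold change of 0.10 (FDR = 0.0968). Hk3 had at most 2 counts in any library.

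Of the 9 kept genes that act on hexose phosphates, 8 fell (16.6% of all genes), with a median log2 fold change of -0.44. Aldoc, an aldolase isozyme best known from brain, had the largest decrease among the 45 members. Its level was 26.4, 28.4 and 25.4 CPM in oe-AQP1 and 53.0, 47.9 and 51.0 CPM in oe-NC. The log2 fold change was -0.92 ± 0.06 (FDR = 2.19e-06), a level 1.89-fold lower. The ubiquitous isozyme Aldoa, present at a far higher level, went from 539, 485 and 489 CPM in oe-NC to 370, 376 and 366 CPM in oe-AQP1. It fell by 0.44 on the log2 scale (SE 0.04, FDR = 3.89e-05).

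Phosphofructokinase commits the sugar to glycolysis, and each of its 3 genes was lower. Pfkl, the liver-type subunit, stood at 141, 142 and 140 CPM in oe-AQP1 and at 229, 200.2 and 200.7 CPM in oe-NC, a log2 fold change of -0.57 ± 0.05 (FDR = 2.77e-05). The decreases of Pfkp, the platelet type, and Pfkm, the muscle type, came to -0.24 and -0.21 on the log2 scale (FDR = 5.99e-04 and 0.00407). Gpi1, which converts glucose 6-phosphate to fructose 6-phosphate, was at 198, 203 and 194 CPM in oe-AQP1 and at 300.4, 272 and 269 CPM in oe-NC. Its log2 fold change was -0.50 ± 0.05 (FDR = 3.00e-05). Pgm1, the phosphoglucomutase that links the chain to glycogen, and Galm, which interconverts the anomers of the hexoses, fell by 0.48 and 0.41. Pgm2 had a log2 fold change of -0.11 and was not called (FDR = 0.206). For Gpi1, Pfkl and Aldoa, oe-NC sample 1 lay above the other oe-NC samples. Among all 29 lower members it was the highest control in 18, and Gpi1, Pfkl and Aldoa kept their calls when it was left out.

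**Figure D2:**
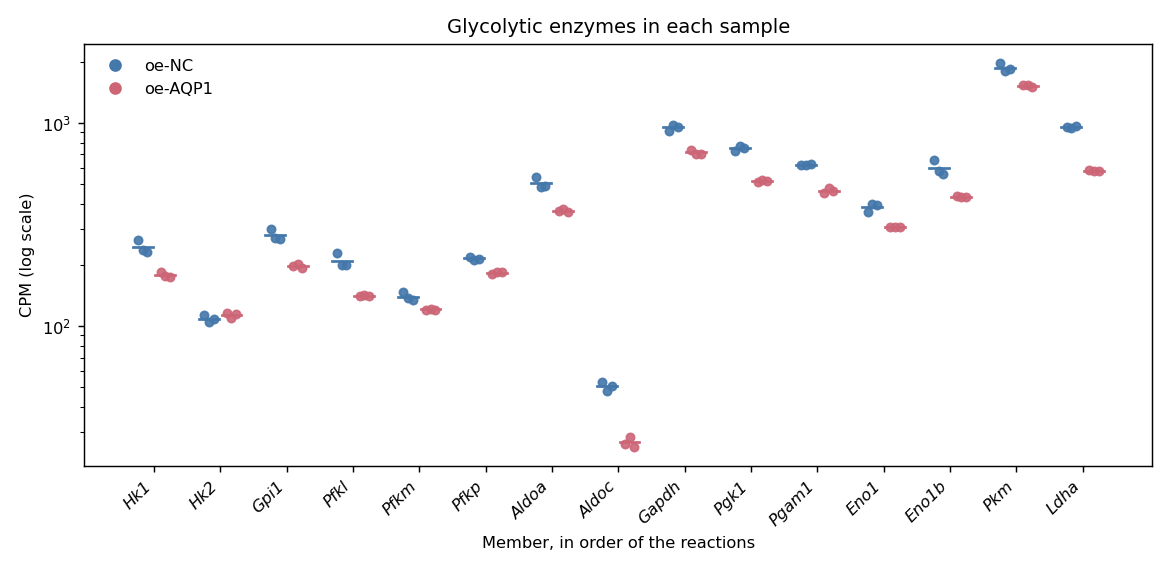
CPM on a logarithmic axis for 15 enzymes in the order of the reactions, with 1 point for each of 3 oe-NC samples (blue) and 3 oe-AQP1 samples (red) and a bar at each group mean. All oe-AQP1 points lie below all oe-NC points from Gpi1 to Ldha and for Hk1, whereas those of Hk2 overlap.

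The triose steps, in which ATP is regained, held 12 kept genes, of which 10 fell (16.6% of all genes). The median log2 fold change was -0.37. Gapdh, which oxidises glyceraldehyde 3-phosphate and served the study as the reference gene of its qPCR, was at 737, 705.9 and 705.9 CPM in oe-AQP1 and at 916, 981 and 958 CPM in oe-NC. The groups did not overlap, and Gapdh was 1.33-fold lower, with a log2 fold change of -0.41 ± 0.04 (FDR = 1.48e-05). Pgk1, the first of the ATP-forming kinases of the chain, stood at 512, 527 and 521 CPM in oe-AQP1 and at 728, 768 and 756 CPM in oe-NC. It fell by 0.53 on the log2 scale (SE 0.03, FDR = 1.09e-06).

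Pgam1, the phosphoglycerate mutase, was at 454, 478 and 462 CPM in oe-AQP1 and at 619.4, 618.6 and 625 CPM in oe-NC, a log2 fold change of -0.42 ± 0.03 (FDR = 5.89e-06). Its counts were partly fractional and reads may be divided between it and the near-identical Pgam1-ps2. The sum of both was 499.6 ± 15.1 CPM in oe-AQP1 and 686 ± 12.6 CPM in oe-NC (SD, n = 3). Enolase 1, which forms phosphoenolpyruvate, was counted under Eno1 and under its intronless near copy Eno1b, with fractional counts for both. Eno1 had a log2 fold change of -0.33 ± 0.04 and Eno1b one of -0.46 ± 0.05 (FDR = 1.56e-04 and 1.19e-04), and how the reads were divided between them is uncertain. Their sum was 741 ± 3.59 CPM in oe-AQP1 and 986 ± 34.6 CPM in oe-NC, a log2 ratio of the means of -0.41. The neuronal enolase Eno2 and the muscle enolase Eno3 fell by 0.30 and 0.45.

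Pkm, the pyruvate kinase of most tissues and tumours, had the highest CPM of all members, at 1545, 1538 and 1504 in oe-AQP1 and 1971, 1809 and 1844 in oe-NC. The groups were separate, and the decrease was smaller than that of Pgk1 or Ldha in size, with a log2 fold change of -0.29 ± 0.04 (FDR = 1.66e-04). The counts per gene do not separate its splice forms. Pklr, the pyruvate kinase of liver and red cells, was near the other end of the range. Its level was 10.7, 9.05 and 8.22 CPM in oe-AQP1 and 16.1, 14.0 and 13.4 CPM in oe-NC. It fell by 0.64 on the log2 scale (SE 0.11, FDR = 0.0017). Bpgm, which makes the bisphosphoglycerate of red cells, passed the threshold narrowly (log2 fold change -0.24, FDR = 0.0422) and did not pass it under several other settings. Pgam2, at about 2 CPM, and Minpp1 were not called (log2 fold changes of -0.19 and -0.08, FDR = 0.552 and 0.327).

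Tpi1, the triosephosphate isomerase that joins the hexose and triose steps, does not carry the pathway in the deposited annotation and is not among the 64. Its level was 357, 362 and 352 CPM in oe-AQP1 and 543, 509 and 509 CPM in oe-NC. It fell by 0.54 on the log2 scale (SE 0.04, FDR = 2.19e-06).

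The lactate dehydrogenase step rested on 1 gene. Ldha, whose subunit favours the conversion of pyruvate to lactate, stood at 590, 579 and 581 CPM in oe-AQP1 and at 954, 948 and 968 CPM in oe-NC. No sample of either group came near the other group. Its level was 61.0% of the control, with a log2 fold change of -0.71 ± 0.03 (FDR = 3.41e-08), the smallest FDR of the 45 genes tested. Ldhc and Ldhal6b, isozymes of the testis, had at most 6 counts in any library. Ldhb, the heart-type subunit, which the annotation leaves outside the pathway, had 0 counts in all 6 libraries.

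To set the changes beside sequence, the 250 bases before an annotated transcription start were read from RefSeq promoters on GRCm38.p6. The genes were 3 members that fell and are well known glycolytic genes, and the member with the largest increase. They were picked after their values were seen. Where a gene had more than 1 RefSeq promoter, one with the most matches to the letters described below was printed. They are Aldoc (chr11:78322823-78323072, plus strand), Ldha (chr7:46845554-46845803, plus strand), Pgk1 (chrX:106186850-106187099, plus strand) and Aldh1b1 (chr4:45798772-45799021, plus strand). Capitals mark the letters ACGTG or GCGTG on either strand, the core of the element that hypoxia-inducible factors bind, with overlapping matches joined. The letters CACGTG, the E-box read by MYC and the carbohydrate response factors, hold ACGTG and so overlap it.
Aldoc: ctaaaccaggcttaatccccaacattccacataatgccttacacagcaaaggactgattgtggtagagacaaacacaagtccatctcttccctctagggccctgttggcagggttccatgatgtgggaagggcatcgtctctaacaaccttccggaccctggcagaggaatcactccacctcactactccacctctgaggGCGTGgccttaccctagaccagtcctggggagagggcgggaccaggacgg
Ldha: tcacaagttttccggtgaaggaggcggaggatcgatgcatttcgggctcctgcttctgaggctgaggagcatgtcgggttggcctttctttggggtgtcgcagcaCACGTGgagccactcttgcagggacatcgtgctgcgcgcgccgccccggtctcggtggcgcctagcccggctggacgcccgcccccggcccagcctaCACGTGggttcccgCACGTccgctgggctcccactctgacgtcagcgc
Pgk1: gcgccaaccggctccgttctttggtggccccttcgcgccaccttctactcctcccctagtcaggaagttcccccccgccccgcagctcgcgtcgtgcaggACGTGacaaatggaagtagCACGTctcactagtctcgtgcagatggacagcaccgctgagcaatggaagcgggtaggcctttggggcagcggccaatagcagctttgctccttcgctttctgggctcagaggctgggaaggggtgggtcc
Aldh1b1: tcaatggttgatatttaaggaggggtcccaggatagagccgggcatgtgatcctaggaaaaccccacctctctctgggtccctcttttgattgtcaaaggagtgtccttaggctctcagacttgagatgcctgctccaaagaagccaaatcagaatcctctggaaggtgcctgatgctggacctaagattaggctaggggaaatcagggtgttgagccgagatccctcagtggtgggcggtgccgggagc
The Ldha stretch held 3 matches, of which 2 were CACGTG, the Pgk1 stretch held 2, the Aldoc stretch 1 and the Aldh1b1 stretch 0. The other Ldha promoter (chr7:46846832-46847081) held 1 match and no CACGTG, and the other Aldoc promoter (chr11:78323948-78324197) held 1 match. The choice by matches favours genes with several promoters. RefSeq promoters were found for 54 of the 64 members, and for 41 of the 45 tested. A match was held by 38.6% of all 32851 RefSeq promoters, and over promoters of genes that passed the filter 54.4% did. Among the tested members the share was 63.0% of 54 promoters. It was 66.7% of the 39 promoters of lower members and 53.3% of the 15 promoters of members that were not lower. By gene, where a match in any promoter counts, it was present in 19 of 26 lower members (73.1%) and in 8 of 15 members that were not lower. Of all genes that passed the filter 60.5% held 1. The lower members had more promoters per gene, which raises their share by gene. Such short letters are frequent in GC-rich promoters, and a match is not evidence of a bound site.

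Pyruvate dehydrogenase is the mitochondrial complex that turns pyruvate into acetyl-CoA. Of its 4 tested members 1 was called lower and 0 higher (16.6% and 16.0% of all genes). Pdha1, the catalytic alpha subunit and the target of the pyruvate dehydrogenase kinases, was at 196, 195 and 190 CPM in oe-AQP1 and at 259, 270.5 and 270.2 CPM in oe-NC. It fell by 0.46 on the log2 scale (SE 0.04, FDR = 6.79e-06). Pdhb, the beta subunit of the same component, was at 260.1, 256 and 258 CPM in oe-AQP1 and at 249.6, 263 and 267 CPM in oe-NC, and these groups overlapped. The log2 fold changes of Pdhb, Dlat and Dld were -0.01, -0.07 and -0.01 (FDR = 0.837, 0.19 and 0.919), and Dlat and Dld were called lower once oe-NC sample 1 was left out. The ratio of Ldha to Pdha1 in CPM was 3.02 ± 0.045 in oe-AQP1 and 3.59 ± 0.091 in oe-NC (SD, n = 3), without overlap between the groups.

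Of the 7 members particular to gluconeogenesis 4 were tested, of which 1 fell and 1 rose (16.6% and 16.0% of all genes). Phosphoenolpyruvate carboxykinase came almost wholly from the mitochondrial isozyme Pck2. Pck2 stood at 179, 181 and 173 CPM in oe-AQP1 and at 230.3, 204 and 201 CPM in oe-NC. Its log2 fold change was -0.25 ± 0.05 (FDR = 0.00545). The cytosolic isozyme Pck1, the classical gluconeogenic form of liver and kidney, was near 3 CPM in all 6 samples, at 3.29, 3.14 and 3.02 CPM in oe-AQP1 and 3.31, 3.34 and 3.38 CPM in oe-NC. It was not called (log2 fold change -0.09 ± 0.13, FDR = 0.651). Fbp1, the fructose bisphosphatase of kidney and liver, and G6pc2 had 0 counts in every library, and G6pc1, which releases free glucose in those organs, had 2 counts in 1 library.

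The muscle-type fructose bisphosphatase Fbp2 was 1 of the 2 members that rose. It went from 2.39, 2.63 and 3.00 CPM in oe-NC to 4.35, 4.55 and 3.50 CPM in oe-AQP1. These values rest on 47, 48 and 64 counts against 86, 100 and 72 counts. Fbp2 was 1.53-fold higher (log2 fold change 0.62 ± 0.16, FDR = 0.0165), and the call was lost without oe-AQP1 sample 1 (FDR = 0.0568), oe-AQP1 sample 2 (FDR = 0.0676) or oe-NC sample 2 (FDR = 0.0507). G6pc3, the ubiquitous glucose-6-phosphatase, was at 28.6, 28.3 and 30.9 CPM in oe-AQP1 and at 31.8, 31.6 and 35.4 CPM in oe-NC and was not called (log2 fold change -0.17, FDR = 0.0697). Its call changed when oe-NC sample 1 was left out, which made it lower at FDR under 0.05.

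The KEGG map also holds the enzymes that handle ethanol, aldehydes and acetate. Of the 11 kept members of this branch 6 fell and 1 rose (16.6% and 16.0% of all genes). The increase was Aldh1b1, a mitochondrial aldehyde dehydrogenase that oxidises acetaldehyde and retinaldehyde. It stood at 42.0, 45.7 and 43.4 CPM in oe-AQP1 and at 18.3, 17.02 and 14.7 CPM in oe-NC, from 831, 1006 and 893 counts against 359, 311 and 314 counts. Every oe-AQP1 sample lay above every oe-NC sample, and the level was 264% of the control (log2 fold change 1.40 ± 0.08, FDR = 5.19e-07). Aldh2, the main mitochondrial acetaldehyde dehydrogenase, went the other way, at 83.6, 82.6 and 78.8 CPM in oe-AQP1 and 113, 98.8 and 94.2 CPM in oe-NC. It fell by 0.32 on the log2 scale (SE 0.07, FDR = 0.00443).

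Akr1a1, an aldehyde reductase, had the highest level per length of this branch. It stood at 305, 296 and 291 CPM in oe-AQP1 and at 313, 316 and 317 CPM in oe-NC. Its log2 fold change was -0.09 (FDR = 0.0787), and it was called lower without oe-NC sample 1 or without the low-count filter. Adh1, a classical alcohol dehydrogenase, and Acss2, which makes acetyl-CoA from acetate outside the mitochondrion, fell by 0.45 and 0.29. The decreases of Adh5, the glutathione-dependent formaldehyde dehydrogenase, and of Aldh9a1 were -0.24 and -0.22. Adh7 passed the threshold narrowly (log2 fold change -0.11, FDR = 0.0487) and lost the call in several alternatives. Aldh7a1, Aldh3b1 and Aldh3a2 were not called, with log2 fold changes of -0.15, -0.10 and -0.03.

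The make-up of the enzyme families was compared as shares of isozymes, computed from CPM divided by transcript length. With 3 samples per group the smallest p of the test lies above the threshold, so no difference in share could pass it. Hk1 made up 69.0% ± 1.22 of the hexokinase level in oe-NC and 63.0% ± 0.514 in oe-AQP1, and Hk2 made up 16.8% ± 0.549 and 21.9% ± 0.473 (SD, n = 3 per group). Both groups were separate for each gene, while the hexokinase sum went from 394 ± 22 to 327 ± 6.8 CPM. Among the phosphofructokinases Pfkl had 37.6% ± 1.21 in oe-NC and 32.1% ± 0.238 in oe-AQP1. Pfkp held 36.8% ± 1.11 and then 39.6% ± 0.375. The share of Aldoc in aldolase was 5.17% ± 0.165 in oe-NC and 3.77% ± 0.155 in oe-AQP1, and that of Pklr in pyruvate kinase 0.548% ± 0.032 and 0.432% ± 0.052. The difference of Pklr, -0.116 percentage points, became -0.555 with the length of all exons, and that of Aldoc, -1.40, became -2.69 with that length and -2.40 without division by length. In each of these 6 cases the exact two-sided permutation test gave p = 0.1, the smallest it can give. Over the 18 shares compared, 13 reached this p, and its Benjamini-Hochberg adjusted value was 0.138, above the threshold.

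The shares of the enolases depended on how reads were divided between Eno1 and Eno1b. Eno1b held 58.5% in oe-NC and 56.5% in oe-AQP1, and its groups overlapped. The summed enolase level was 1143 ± 38.6 CPM in oe-NC and 863 ± 3.0 CPM in oe-AQP1. Pck2 made up 97.3% and 97.0% of the phosphoenolpyruvate carboxykinase level, and Pgam1 99.2% and 99.1% of phosphoglycerate mutase.

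**Figure D3:**
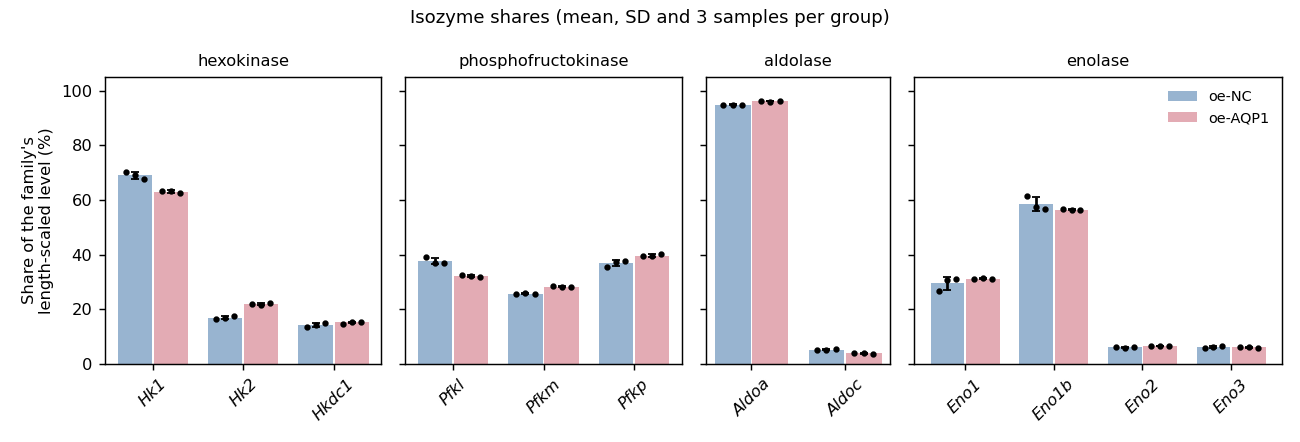
Share of each isozyme in its enzyme family, in percent of the summed CPM per kilobase, for hexokinase, phosphofructokinase, aldolase and enolase. Bars are group means, lines are the SD and points the 3 samples of oe-NC (blue) and oe-AQP1 (red). The shares of Hk1, Pfkl and Aldoc are lower in every oe-AQP1 sample, and those of Hk2, Pfkm and Pfkp are higher.

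Several members also belong to other KEGG maps. Of the members also annotated to HIF-1 signaling 17 were tested, and 15 of these fell and 0 rose, with a median log2 fold change of -0.44. Of the 28 tested members outside that map 14 fell and 2 rose, with a median of -0.18. The members shared with pyruvate metabolism held 11 decreases and 1 increase among 19 tested, and those shared with the citrate cycle 2 decreases among 6. Over all genes 16.6% were called lower and 16.0% higher, and 35.1% and 12.6% of those at or above the members' median length-scaled control level. Abundant members such as Gapdh, Ldha, Pgk1, Aldoa and Eno1b are on the HIF-1 map, whereas the abundant Pkm, Pgam1 and Akr1a1 are not. The less abundant Aldoc, Hk2 and Hkdc1 are on it. Whether the difference between the maps went with level was not tested.

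The 19 members that did not pass the filter had at most 10 counts in any library, and 7 of them, namely Adh4, Aldh3b2, Fbp1, G6pc2, Pgk2, Pdha2 and Aldoart1, had 0 in all libraries. Among the rest were Acss1, Aldh3a1, Aldh3b3, G6pc1, Hk3, Ldhal6b, Ldhc, Aldoart2, Eno4 and Gapdhs. The list holds isozymes of sperm and testis (Gapdhs, Pgk2, Ldhc and, of pyruvate dehydrogenase, Pdha2) and the isozymes of differentiated liver and proximal tubule (Fbp1, G6pc1). Aldh3a1 had 0 counts in each oe-AQP1 library and 2, 1 and 4 in the oe-NC libraries, and was called lower when all genes were tested without a filter (FDR = 0.0113). No other of these genes was called in that setting, and counts this low could not show a modest difference.

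Genes that feed, drain or regulate the chain were read from 7 lists of 60 genes in all, of which 48 were tested, 21 fell and 9 rose (16.6% and 16.0% of all genes). Of these 30 calls, 18 were kept in every alternative setting. At the cell surface, Slc2a1, the basal glucose transporter, stood at 55.3, 57.9 and 57.2 CPM in oe-AQP1 and at 104, 95.4 and 97.4 CPM in oe-NC. It was 1.74-fold lower (log2 fold change -0.80 ± 0.05, FDR = 9.14e-07). Of the other 3 transporters tested, Slc2a2 fell by 0.67 (FDR = 0.0202, but 0.0638 with DESeq2 and up to 0.0801 with 1 sample left out, namely oe-AQP1 sample 1 or 2 or oe-NC sample 2), Slc2a8 had -0.34 and was not called (FDR = 0.0572), and Slc2a6, a lysosomal family member at 2 to 5 CPM, rose with a log2 fold change of 0.93 (FDR = 0.00507). For lactate export, the transporter Slc16a1 and its chaperone Bsg fell by 0.21 and 0.49 (FDR = 0.00152 and 1.48e-06). Slc16a3, the exporter of strongly glycolytic cells, had at most 8 counts in any library. Of the mitochondrial pyruvate carrier, Mpc2 fell by 0.22 (FDR = 0.0237, and up to 0.107 without oe-AQP1 sample 2 or 3 or oe-NC sample 2 or 3) and Mpc1 was not called (log2 fold change 0.02, FDR = 0.849).

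The regulators of the irreversible steps moved in both directions. Pfkfb3, which makes the allosteric activator of phosphofructokinase, was higher (log2 fold change 0.32 ± 0.04, FDR = 3.94e-04). It stood at 255, 253 and 249.7 CPM in oe-AQP1 against 216, 200 and 193 CPM in oe-NC. Pdk1, a kinase that inactivates pyruvate dehydrogenase, was lower (log2 fold change -0.78 ± 0.08, FDR = 3.20e-05). Its level was 21.6, 21.0 and 20.8 CPM in oe-AQP1 against 32.8, 39.4 and 37.2 CPM in oe-NC. Pdk2 had a log2 fold change of -0.27 and lost its call with DESeq2 (FDR = 0.0821), without the low-count filter (0.0763) and without either of oe-AQP1 samples 1 and 3 or oe-NC samples 2 and 3 (up to 0.151). The opposing phosphatases Pdp1 and Pdp2 rose with log2 fold changes of 0.28 and 0.29, Pdp1 not without the low-count filter (FDR = 0.0641). Pdpr, the regulatory subunit of the phosphatase, fell by 0.27 (FDR = 0.0134, and 0.062 without oe-AQP1 sample 3). In the pentose phosphate list 4 of 7 genes fell, Pgls, Tkt, Taldo1 and G6pdx, and Rpe rose. The calls of Taldo1 and G6pdx were fragile, with FDR = 0.0558 and 0.141 under DESeq2 and up to 0.0971 and 0.189 with 1 sample left out. Both calls were lost without any one of the oe-AQP1 samples or oe-NC sample 3, and that of G6pdx also without oe-NC sample 2.

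Among the transcription factors, Hif1a was at 304, 310 and 319 CPM in oe-AQP1 and 296, 336 and 327 CPM in oe-NC. The groups overlapped and the log2 fold change of -0.04 ± 0.05 was not called (FDR = 0.603). Epas1, which encodes the other main hypoxia-inducible alpha subunit, had at most 1 count per library. Myc, an activator of glycolytic genes in many tumours, and Ppargc1a, a coactivator of oxidative metabolism, rose with log2 fold changes of 0.30 ± 0.07 and 0.51 ± 0.07 (FDR = 0.00672 and 5.48e-04). Mlxipl, a carbohydrate response factor, fell by 0.38 (FDR = 0.0115, and 0.057 without oe-AQP1 sample 3). Of 9 tested hypoxia targets outside glycolysis 7 fell and 0 rose (16.6% and 16.0% of all genes), with a median log2 fold change of -0.53. Vegfa was 1 of the 7, with a log2 fold change of -0.30 (FDR = 0.0130, and 0.0592 without oe-AQP1 sample 2). Bnip3, a mitophagy receptor, was at 63.0, 60.3 and 63.6 CPM in oe-AQP1 and at 156, 169 and 163 CPM in oe-NC. It was 2.61-fold lower (FDR = 5.84e-09). Ankrd37, Egln1, which hydroxylates the HIF alpha subunits, and Ndrg1 fell by 1.40, 0.79 and 0.59. P4ha1 and Car9 were not called, with log2 fold changes of 0.02 and -0.53 (FDR = 0.774 and 0.42).

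**Figure D4:**
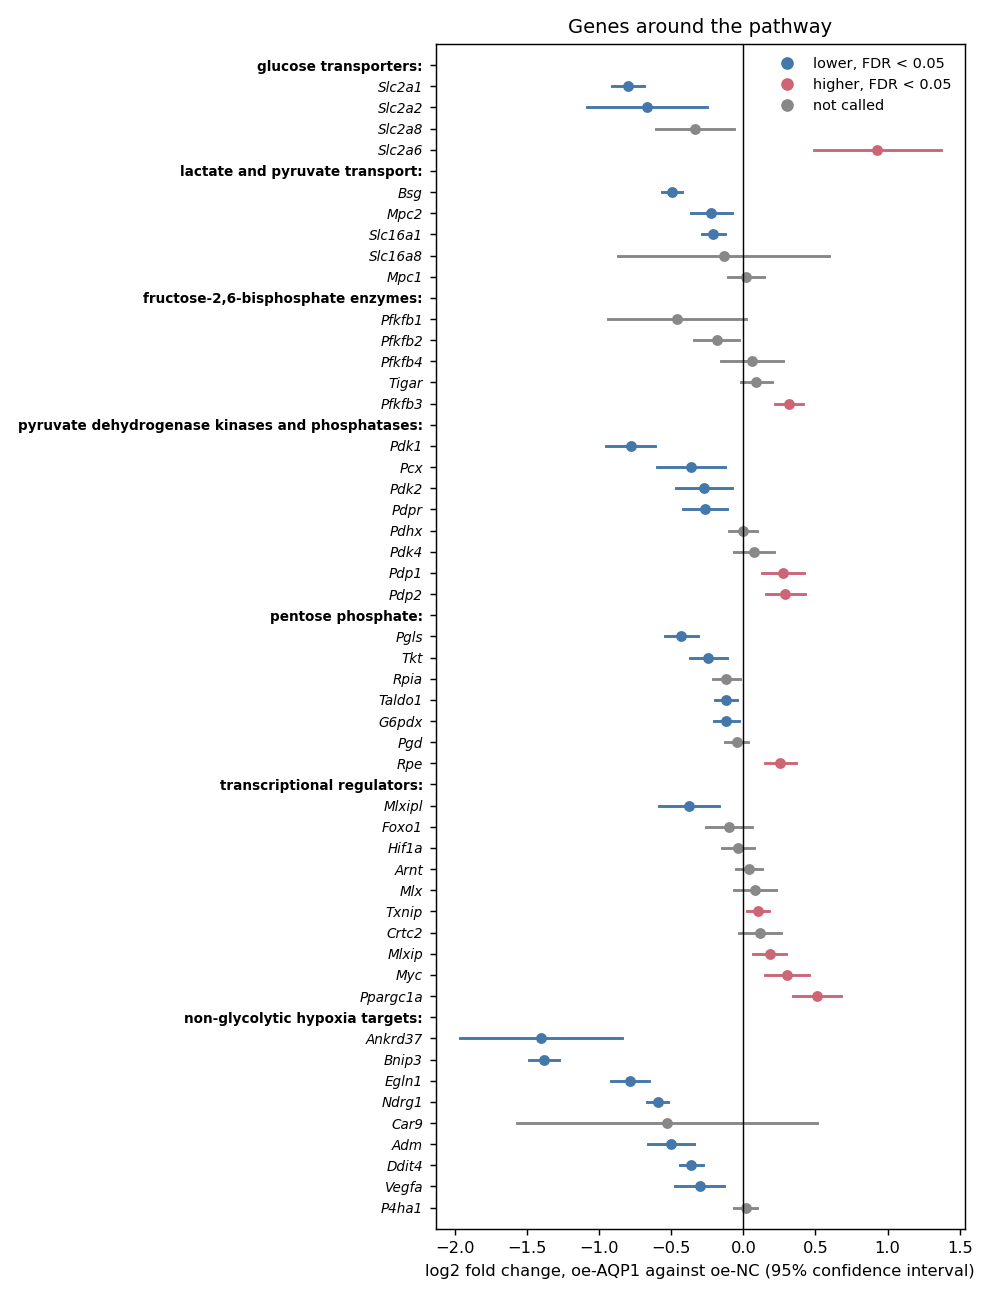
Fitted log2 fold change, oe-AQP1 against oe-NC, with the 95% confidence interval, for the 48 tested genes of 7 lists around the pathway, in blue where lower and in red where higher at FDR under 0.05. Slc2a1, Pdk1 and most of the hypoxia targets lie left of 0, Hif1a lies at 0, and Myc, Ppargc1a, Pfkfb3 and Slc2a6 lie right of it.

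On GRCm39 in the GENCODE M39 annotation, the members with the largest changes are protein-coding genes at chr11:78213619-78218889 (Aldoc, plus strand), chr7:46490899-46505061 (Ldha, plus strand), chr3:89043449-89054619 (Pklr, plus strand), chr10:77818084-77845922 (Pfkl, minus strand), chrX:105230706-105247305 (Pgk1, plus strand), chr13:62984691-63006552 (Fbp2, minus strand) and chr4:45798886-45804604 (Aldh1b1, plus strand). Gapdh lies at chr6:125135289-125143518 (minus strand). The counts were deposited per gene, and which of its annotated exons and untranslated regions they cover was not checked. Of the 45 tested members 21 had a non-whole count in some sample, among them Ldha, Gapdh, Pkm, Hk1 and Gpi1, so part of their reads may have been divided between genes. Among the 24 with whole counts throughout, 13 fell (16.6% of all genes), and the median log2 fold change was -0.21.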

How the data were processed

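RNA was sequenced from 3 oe-AQP1 and 3 oe-NC samples of RENCA cells, grouped by the sample labels. The authors deposited an expected count (an estimated count that need not be whole) for each of 78298 genes and sample, without scaling, with GO and KEGG annotation and 2 columns of group means that were not used. The paper's methods name GRCm39, whereas the submitters' processing notes list GRCm38 and mm10 with fastp, HISAT2, featureCounts and Subread, with no versions. Of the gene IDs 78168 were found in GENCODE M39 (GRCm39), all 64 members among them, and positions and canonical transcript lengths come from it. Non-whole counts (tolerance 0.005) occur in 16.33% of genes. A gene that shares reads with a near copy is therefore measured less surely than its count implies.

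Counts were rounded and tested with limma-voom (limma 3.58.1, edgeR 4.0.16, R 4.3.3), as in the paper's methods, after TMM scaling and filterByExpr, which kept 15522 genes. Benjamini-Hochberg adjustment ran over all kept genes, with FDR under 0.05 as the call. Single values per sample were compared by exact permutation tests. The samples held 18385714.02 to 21920898.67 counts, and counting error at 20 counts or fewer limits calls. The model was tested on simulated data. Values in every sample were given for members with FDR under 0.05 and an absolute log2 fold change of at least 0.5, for the most abundant member of each step, for Gapdh and for the gluconeogenesis genes kept, and other members were named freely. Values per sample of further members, companions and Tpi1, and the choice of promoters, followed after values were seen. The members and lists were chosen with earlier results of these data known. The settings varied were the test (quasi-likelihood of edgeR, DESeq2 1.42.0), 3 other scalings, 2 other filters, a replicate block and leaving out each sample, and for shares other totals or lengths. A few members and markers are not reported here.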

Additional observations from a re-analysis of the deposited data

How the results depend on the processing

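The counts of members called lower and higher were 29 and 2, and lay between 27 and 30 and at 2 under edgeR's quasi-likelihood test, DESeq2, 3 other scalings and 2 other filters. With 1 sample left out they ranged from 27 to 32 lower and from 1 to 2 higher, where 1 was the value without oe-AQP1 replicate 1, oe-AQP1 replicate 2 or oe-NC replicate 2. The number of all genes called, 5050, ranged from 3601 to 6456 with 1 sample left out. The labels do not say whether the replicate numbers mark pairs. Deviations of samples with the same number correlated at 0.015, -0.02 and -0.073, so no pairing by number was visible in the counts. With a replicate block 27 members were lower and 2 higher. Of 31 members called, 28 were called in every alternative that tested them, and Adh7, Bpgm and Fbp2 were not (highest FDR 0.185, 0.175 and 0.0676). Of the 30 companion genes called outside the pathway, 12 lost the call in some alternative, namely G6pdx, Mlxip, Mlxipl, Mpc2, Pcx, Pdk2, Pdp1, Pdpr, Slc2a2, Taldo1, Txnip and Vegfa. Without oe-NC replicate 1, Akr1a1, G6pc3, Dlat and Dld were also called lower. No member changed sign past the threshold. The difference of the summed share, -0.222 percentage points, was -0.252 with nuclear protein-coding counts as the total. The differences in the isozyme shares of Hk1, Aldoc and Pklr were -7.36, -2.40 and -0.161 percentage points from CPM not divided by length and -7.04, -2.69 and -0.555 with the length of all exons, an alternative added after the data were seen. With 1 sample left out they ranged from -6.63 to -5.41, from -1.48 to -1.30 and from -0.145 to -0.0936. Without the low-count filter 57 members were tested, and Aldh3a1 and Akr1a1 were added to the lower calls. Members at 10 counts or fewer per library are beyond the reach of this depth for modest changes.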
